A study of Homo sapiens with 24 samples.

Results

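The transcripts described here are 9 mRNAs of the NRF2 antioxidant response. NFE2L2 encodes the transcription factor NRF2, KEAP1 encodes its cytoplasmic sensor, and the other 7, NQO1, GCLC, GCLM, TXNRD1, SRXN1, HMOX1 and TXN, are genes that NRF2 is known to switch on. They were chosen by name as the core of the pathway, with earlier results of these data known. They make up 9 of the 58676 gene rows in the count files. All 9 passed the filter on low counts, together with 13136 genes in all.

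In unstressed cells KEAP1 holds NRF2 and presents it to a CUL3 ubiquitin ligase, so that the protein is destroyed soon after it is made. Oxidants and electrophiles modify cysteines of KEAP1, newly made NRF2 then escapes to the nucleus, pairs with a small MAF protein and binds antioxidant response elements near its target genes. The liver, which meets many electrophiles, uses this pathway to make glutathione, to keep thioredoxin reduced and to clear quinones and heme.

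HepG2, an established human hepatocellular carcinoma line, received a negative control siRNA (siControl) or an siRNA that targets IGF2BP1 (siIGF2BP1), IGF2BP2 (siIGF2BP2) or IGF2BP3 (siIGF2BP3), RNA-binding proteins of a single family. Actinomycin D, which blocks transcription, was given at 5 µg/ml for 0, 3 or 6 h before collection, and the study asked how each protein affects the lifetime of mRNA. The 24 libraries of polyadenylated RNA form 12 groups of 2 replicates, the plates of the time points were split from the same transfected plate, and ERCC synthetic RNA was added in proportion to total RNA. Every condition, the control included, thus carries an siRNA, and no group was exposed to an oxidant or other NRF2 activator. The study calls its replicates independent, but the labels do not say whether they came from separate transfections, so p-values measure only the spread between these libraries.

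Each library held 31843248 to 74252042 reads on genes and 50889 to 119088 reads on ERCC. At 0 h IGF2BP1 fell by 2.24 on the log2 scale in siIGF2BP1, IGF2BP2 by 1.93 in siIGF2BP2 and IGF2BP3 by 1.49 in siIGF2BP3 (adjusted p at most 7.83e-25 in edgeR). ALB, at 10740 to 17360 CPM (reads on a gene scaled to the total of its library), and the other hepatocyte markers APOA1, APOB, SERPINA1, AFP and HNF4A were abundant in all 24 libraries, TTR was lower at 38.6 to 77.6 CPM, and the leukocyte markers PTPRC and CD3E had 1 and 2 reads in total. Of the defining fibroblast and endothelial markers, PDGFRB reached 13.0 CPM and COL1A1, PECAM1 and CDH5 stayed at or under 1.38 CPM. The siControl 0 h libraries differed in gene reads per ERCC read, at 107% and 93.3% of their mean, and this pair sets the starting point of every comparison of decay with siControl. In bulk RNA of this kind, a change in every cell and a change in some of the cells cannot be told apart.

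Levels at 0 h are given as CPM scaled by TMM, a scaling that sets the typical gene equal between libraries. Per kilobase of the canonical transcript, NQO1 was the most abundant member in siControl at 0 h, at 214 ± 5.25 (SD, n = 2). TXN followed at 113 ± 1.66, NFE2L2 at 81.1 ± 1.17 and TXNRD1 at 48.2 ± 1.12. HMOX1 at 21.4 ± 0.677, KEAP1 at 19.1 ± 0.420 and GCLC at 15.9 ± 0.0288 lay close together, yet each neighbouring pair differed by more than the SD of either, and GCLM stood below them at 5.66 ± 0.130. SRXN1 was left out of this order, since 2292 of the 2528 bases of its canonical transcript are shared on the same strand with the gene ENSG00000270299, which collected 2 reads in 24 libraries. Reads in a stretch shared by 2 genes may not have been counted for either, and SRXN1 rested on 204 to 453 reads per library at 0 h. NQO1, GCLC and NFE2L2 share 575, 252 and 190 bases of their canonical transcripts with genes on the opposite strand, which collected 1081, 19 and 356 reads over the 24 libraries. Outside its canonical transcript, NFE2L2 shares 3509 exon bases with HNRNPA3 on the opposite strand, which collected 1009193 reads. It also shares 2037 with ENSG00000213963 on the same strand, which collected 1595. What these overlaps did to the counts was not tested.

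NFE2L2, which lies on chromosome 2 (hg38, 177218667 to 177392756, minus strand), did not pass the test in any knockdown at 0 h. Its TMM-scaled level was 196 and 200 CPM in the siControl replicates, 199 and 204 in siIGF2BP1, 191 and 188 in siIGF2BP2, and 201 and 209 in siIGF2BP3. The siIGF2BP2 libraries were the lowest and lay below both controls (log2 difference -0.07, SE 0.05, adjusted p = 0.41 in edgeR), a difference called only when those 4 libraries were fitted alone. KEAP1 (chromosome 19, 10486125 to 10503558, minus strand) was at 49.7 and 48.2 CPM in siControl, 48.1 and 46.8 in siIGF2BP1, 48.2 and 53.5 in siIGF2BP2, and 49.2 and 47.2 in siIGF2BP3. Its log2 differences from siControl, between -0.04 and 0.05, were all smaller than their SE of 0.06. Neither the factor nor its sensor was thus called at the mRNA level.

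The target genes moved in siIGF2BP1. There 5 of the 9 members passed the test, all higher and all targets (NQO1, GCLC, GCLM, TXNRD1 and HMOX1), beside 15.9% of all genes tested that were called in either direction. In siIGF2BP2 only NQO1 was called, lower, beside 12.1% of genes, and in siIGF2BP3 only HMOX1, higher, beside 9.39%. The median log2 difference over the 9 members was 0.16, 0.05 and 0.01 in siIGF2BP1, siIGF2BP2 and siIGF2BP3, against 0.01, 0.02 and 0.00 over all genes. The changes were small, from 1.12-fold to 1.20-fold for the members that rose. The 3 knockdowns share the siControl libraries, so these results are not independent of each other. The members were chosen with earlier results of these data known, so their counts are descriptive. Where libraries of a group are said to lie apart from another group, the share of all genes that do so was not counted.

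**Figure D1:**
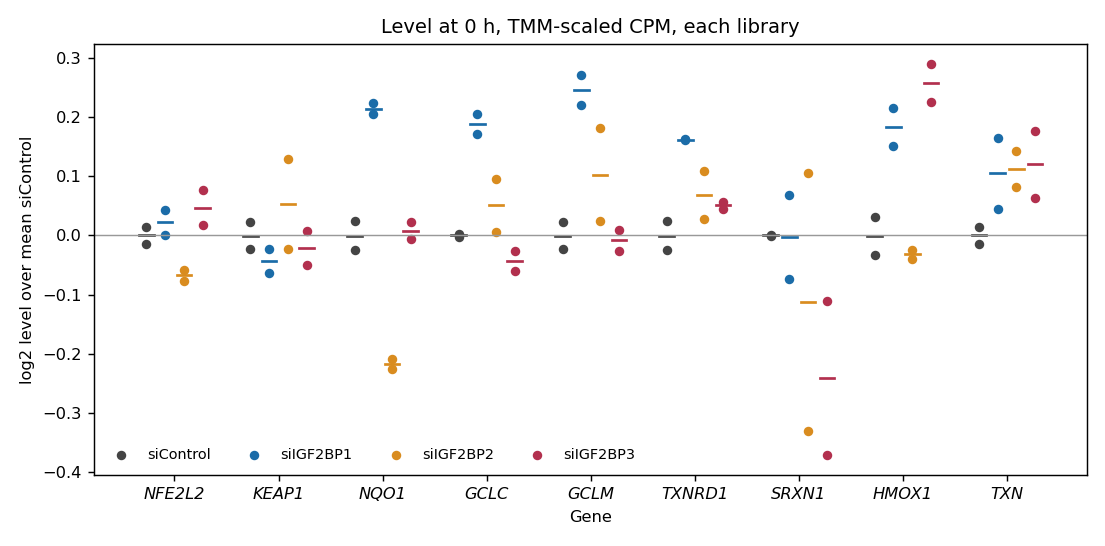
Level of each member at 0 h as the log2 ratio of TMM-scaled CPM to the mean of the 2 siControl libraries. Points are libraries, short bars are means of 2, and colours are the siRNAs. NQO1 is above siControl in siIGF2BP1 and below it in siIGF2BP2. The siIGF2BP1 points of GCLC, GCLM and TXNRD1 lie above both controls, and how many of all genes show this was not counted.

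NQO1 (chromosome 16, 69706996 to 69726668, minus strand) encodes a quinone reductase and is the target most often used to read NRF2 activity. It was at 531 and 549 CPM in siControl, 622 and 630 in siIGF2BP1, 467 and 462 in siIGF2BP2, and 548 and 537 in siIGF2BP3. The siIGF2BP1 libraries lay above the controls, the siIGF2BP2 libraries below them, and the siIGF2BP3 libraries between them. NQO1 rose 1.16-fold in siIGF2BP1 (log2 0.21, SE 0.03, adjusted p = 3.4e-06 in edgeR) and was lower in siIGF2BP2 (log2 -0.22, SE 0.03, adjusted p = 3.35e-06). Both calls held without each library in turn, with adjusted p of at most 0.00105 and 0.00092. In siIGF2BP3 the log2 difference was 0.01 (SE 0.03, adjusted p = 0.937).

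GCLC (chromosome 6, 53497341 to 53616970, minus strand) and GCLM (chromosome 1, 93885199 to 93909456, minus strand) encode the catalytic and the modifier subunit of glutamate-cysteine ligase, which makes the first and limiting step of glutathione synthesis. GCLC was at 60.0 and 60.1 CPM in siControl, 67.6 and 69.2 in siIGF2BP1, 60.3 and 64.2 in siIGF2BP2, and 57.6 and 59.0 in siIGF2BP3. GCLM was at 28.1 and 27.2 CPM in siControl, 33.3 and 32.2 in siIGF2BP1, 31.3 and 28.1 in siIGF2BP2, and 27.8 and 27.1 in siIGF2BP3. For both subunits the siIGF2BP1 libraries were the highest of the 8 and overlapped with no other group, a pattern not counted over all genes. GCLC rose 1.14-fold in siIGF2BP1 (log2 0.19, SE 0.06, adjusted p = 0.0194 in edgeR) and GCLM 1.19-fold (log2 0.25, SE 0.06, adjusted p = 0.00492). The GCLC call was lost when any of the 4 libraries was left out, and the GCLM call without siControl replicate 2 or siIGF2BP1 replicate 1, with log2 differences of at least 0.22 throughout for GCLM.

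TXNRD1 (chromosome 12, 104215779 to 104350307, plus strand) encodes the cytosolic thioredoxin reductase, TXN (chromosome 9, 110243810 to 110256507, minus strand) the thioredoxin that it reduces, and SRXN1 (chromosome 20, 646615 to 653200, minus strand) sulfiredoxin, which repairs overoxidized peroxiredoxins. TXNRD1 was at 183 and 189 CPM in siControl, 209 and 208 in siIGF2BP1, 201 and 190 in siIGF2BP2, and 192 and 194 in siIGF2BP3. All 6 knockdown libraries lay above both controls, and only the siIGF2BP1 difference passed the test, at 1.12-fold (log2 0.16, SE 0.04, adjusted p = 0.00256 in edgeR), a call lost without siControl replicate 1 (adjusted p = 0.0669). TXN was at 82.4 and 84.1 CPM in siControl, 85.8 and 93.4 in siIGF2BP1, 88.1 and 91.8 in siIGF2BP2, and 94.1 and 87.0 in siIGF2BP3. Its 6 knockdown libraries were likewise above both controls, with log2 differences of 0.10, 0.11 and 0.12 that did not pass the test (adjusted p = 0.168, 0.146 and 0.119). SRXN1 ranged from 4.06 to 5.65 CPM over the 8 libraries, with no group apart from the others and an SE of 0.18 to 0.19 on each log2 difference.

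HMOX1 (chromosome 22, 35380361 to 35394214, plus strand) encodes heme oxygenase, which opens the heme ring and releases iron. It was at 34.0 and 32.5 CPM in siControl, 38.7 and 37.0 in siIGF2BP1, 32.7 and 32.4 in siIGF2BP2, and 38.9 and 40.7 in siIGF2BP3. The siIGF2BP1 and siIGF2BP3 libraries lay above both controls and above both siIGF2BP2 libraries. HMOX1 rose 1.14-fold in siIGF2BP1 (log2 0.19, SE 0.06, adjusted p = 0.031 in edgeR) and 1.20-fold in siIGF2BP3 (log2 0.26, SE 0.06, adjusted p = 0.00401). The siIGF2BP1 call was lost when any of the 4 libraries, or the count filter, was left out, and the siIGF2BP3 call without siControl replicate 2 or siIGF2BP3 replicate 2 (highest adjusted p = 0.081).

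Scaled by ERCC instead of TMM, none of the 5 siIGF2BP1 calls passed the test, nor did NQO1 in siIGF2BP2. Their directions did not change: the log2 difference in siIGF2BP1 was 0.18 for NQO1 (adjusted p = 0.231 in edgeR), 0.16 for GCLC (0.485), 0.22 for GCLM (0.279), 0.13 for TXNRD1 (0.521) and 0.15 for HMOX1 (0.54), and that of NQO1 in siIGF2BP2 was -0.14 (0.349). HMOX1 in siIGF2BP3 was called on this scale too, at 0.34 (adjusted p = 0.0263). The all-gene median in siIGF2BP1 was 0.01 with TMM and -0.02 with ERCC scaling. It went from 0.02 to 0.10 in siIGF2BP2 and from 0.00 to 0.09 in siIGF2BP3. The ERCC-scaled values of NQO1 in siIGF2BP2 and of HMOX1 in siIGF2BP3 include that shift.

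The knockdowns were also compared with each other at 0 h, which tests the differences between them directly. NQO1 was higher in siIGF2BP1 than in siIGF2BP2 by 0.43 (log2, SE 0.03, adjusted p = 2.81e-13 in edgeR) and HMOX1 by 0.22 (SE 0.06, adjusted p = 0.00959), 2 of 9 members beside 18.7% of all genes. Against siIGF2BP3, siIGF2BP1 was higher for NQO1 by 0.21, GCLC by 0.23 and GCLM by 0.26 (adjusted p = 9.65e-06, 0.00454 and 0.00537), 3 of 9 members beside 14.3% of genes. Between siIGF2BP2 and siIGF2BP3, NQO1 and HMOX1 were lower in siIGF2BP2, by 0.23 and 0.29 (adjusted p = 2.28e-06 and 0.00115), 2 of 9 beside 9.19%. NQO1 thus separated all 3 knockdowns pairwise, whereas TXNRD1 separated none of them (adjusted p = 0.0998, 0.0516 and 0.86). The NQO1 calls held without each library in turn, while leaving out 1 library ended that of HMOX1 between siIGF2BP1 and siIGF2BP2 in 3 of 4 fits (all but the one without siIGF2BP1 replicate 2) and those of GCLC and GCLM in 2 of 4 each, with adjusted p of at most 0.138, 0.0633 and 0.0846. With ERCC scaling, which moved the all-gene median to -0.12 between siIGF2BP1 and siIGF2BP2 and to -0.11 between siIGF2BP1 and siIGF2BP3, of these 7 differences only NQO1 between siIGF2BP1 and siIGF2BP2 was called, at 0.32 (adjusted p = 0.00194 in edgeR). The other 6 kept their direction. Those between siIGF2BP2 and siIGF2BP3 were as large as before, at -0.23 for NQO1 and -0.29 for HMOX1 (adjusted p = 0.12 and 0.0961), whereas HMOX1 between siIGF2BP1 and siIGF2BP2 went to 0.11, and NQO1, GCLC and GCLM between siIGF2BP1 and siIGF2BP3 went to 0.09, 0.12 and 0.14. DESeq2 also called TXNRD1 in both of its comparisons with siIGF2BP1.

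Other genes of the pathway were described in 4 lists by role. The lists were drawn up with earlier results of these data known, so their counts are no independent check. In them 37 of 38 genes were tested, and ME1 had too few reads. In siIGF2BP1 at 0 h, 9 of 13 detoxification targets were called higher and none lower, beside 15.9% of all genes called in either direction (1239 of 13136 higher), with a median log2 difference of 0.22 beside 0.01 over all genes. The largest were AKR1C2 at 0.59 (SE 0.10) and AKR1C1 at 0.54 (SE 0.07), aldo-keto reductases whose near-identical sequences make the split of reads between them uncertain. PIR at 0.33, AKR1B10 at 0.31, the carbonyl reductase CBR1 at 0.25 and the epoxide hydrolase EPHX1 at 0.22 followed. Of the glutathione and NADPH targets, 5 of 8 were called higher, among them TALDO1 at 0.25, the cystine transporter subunit SLC7A11 at 0.24, glutathione reductase (GSR) at 0.20 and TKT at 0.13. Of the 4 heme and iron targets, both ferritin chains were called higher, FTL at 0.35 and FTH1 at 0.20.

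Of the partners and regulators of NRF2, 2 of 12 were called in siIGF2BP1, a share near the 15.9% of all genes, both higher: SQSTM1 at 0.38, an autophagy receptor that can take KEAP1 away from NRF2 and is itself a target, and RBX1 at 0.30, a subunit of the CUL3 ligase. In siIGF2BP2, where 12.1% of all genes were called, the detoxification list had no gene higher and 3 lower (ABCC3 at -0.57, EPHX1 at -0.32 and AKR1B10 at -0.26), the glutathione list had 2 higher, the iron list 1 higher and the regulators 3 higher. In siIGF2BP3, with 9.39% of all genes called, these counts were 1 lower, 1 lower, 1 higher with 1 lower, and 2 higher with 1 lower. SQSTM1 was called in both, at 0.16 in siIGF2BP2 and -0.25 in siIGF2BP3. RBX1 was called higher in both, at 0.38 and 0.39, and so was FTL, at 0.21 and 0.17. The glutathione genes called higher in siIGF2BP2 were SLC7A11 at 0.29 and TALDO1 at 0.11. The siIGF2BP1 calls of SQSTM1, RBX1, FTL, SLC7A11 and TALDO1 were thus not particular to that knockdown, each being called higher in siIGF2BP2 too. With ERCC scaling the siIGF2BP1 calls fell to 3 of 13, 0 of 8, 1 of 4 and 1 of 12 in the same order of lists, and no called gene changed sign. Leaving out siControl replicate 1 brought the glutathione count to 3 and the detoxification count to 6, leaving out siIGF2BP1 replicate 1 brought the detoxification count to 6 and the regulators to 1, leaving out siIGF2BP1 replicate 2 brought the glutathione count to 2, and leaving out siControl replicate 2 brought the regulators to 1.

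**Figure D2:**
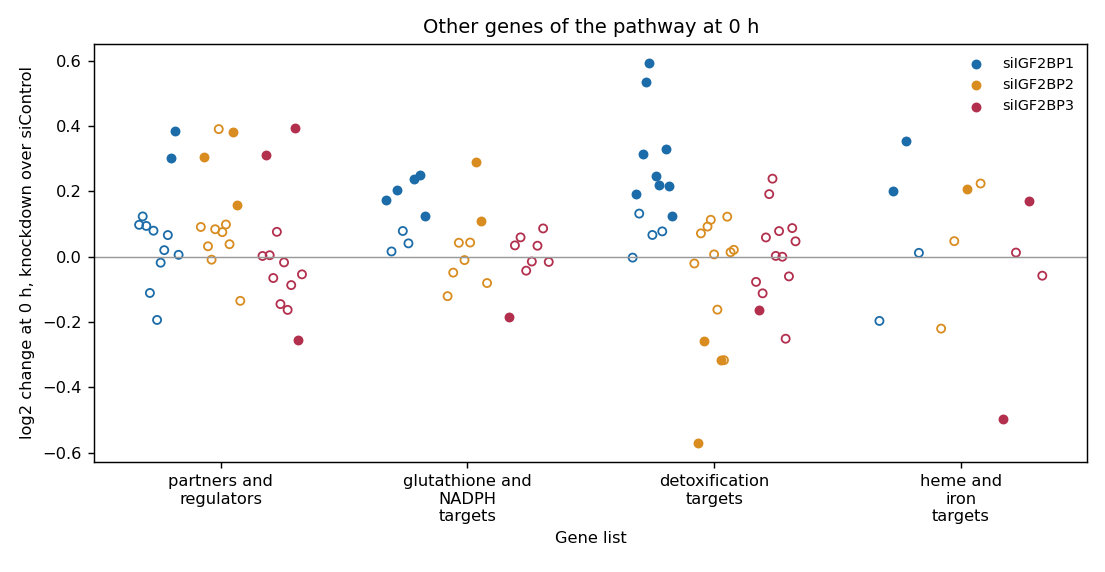
Log2 change at 0 h of each gene of the 4 wider lists, knockdown over siControl, with TMM scaling. Filled points were called by edgeR and open points were not; in siIGF2BP1 all called points lie above 0, whereas in siIGF2BP2 and siIGF2BP3 called points lie on both sides.

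Antioxidant response elements hold the letters TGACNNNGC, which were searched on both strands in RefSeq windows (GRCh38.p14) from 250 bases before to 50 after a start site. Of the 8 members with a window, 3 held a match (37.5%), beside 16.1% of all 27305 genes with one and 19.9% of the genes tested. The matches in GCLM and TXNRD1, which rose in siIGF2BP1, and in KEAP1, which did not pass the test, are given here 5′ to 3′ along the gene's strand, with the motif in capitals, read as GCNNNGTCA where it lies on the other strand.
GCLM, chr1:93909447-93909473, minus strand: acgatttctGCTTAGTCAttgtcttcc
TXNRD1, chr12:104215671-104215697, plus strand: cacgggctaTGACTTCGCtgttgtcac
TXNRD1, second start site, chr12:104286921-104286947, plus strand: tggatttctGCTTTGTCAttctgactc
KEAP1, chr19:10502808-10502834, minus strand: cttttattgTGACACGGCgggcgcccg
KEAP1, chr19:10502785-10502811, minus strand: cccggctctGCTTAGTCAtggtgacct
Both KEAP1 matches lay at its second start site, and the window of its first held none. A further TXNRD1 match began 8 bases before its first start site and ran to that site. The windows of NFE2L2, NQO1, GCLC, SRXN1 and TXN held none, and HMOX1 is named only. A match is a run of letters and not a measured binding site, and windows of this length do not reach distal elements.

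Decay was measured on the ERCC scale, where the level of each mRNA per spike-in read is followed after actinomycin D. In siControl 8 of the 9 members fell with time, all but TXN, beside 80.3% of all genes. In each knockdown 7 of 9 fell, all but NQO1 and TXN, beside 69.1% of genes after siIGF2BP1, 71.3% after siIGF2BP2 and 67.2% after siIGF2BP3. The median slope of the members, as the log2 change over 6 h, was -1.63 with siControl, -1.73 with siIGF2BP1, -1.38 with siIGF2BP2 and -1.28 with siIGF2BP3, against -0.88, -0.69, -0.71 and -0.65 over all genes. The members did not decay alike: their half-lifetimes ran from under 2 h to no measurable loss.

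**Figure D3:**
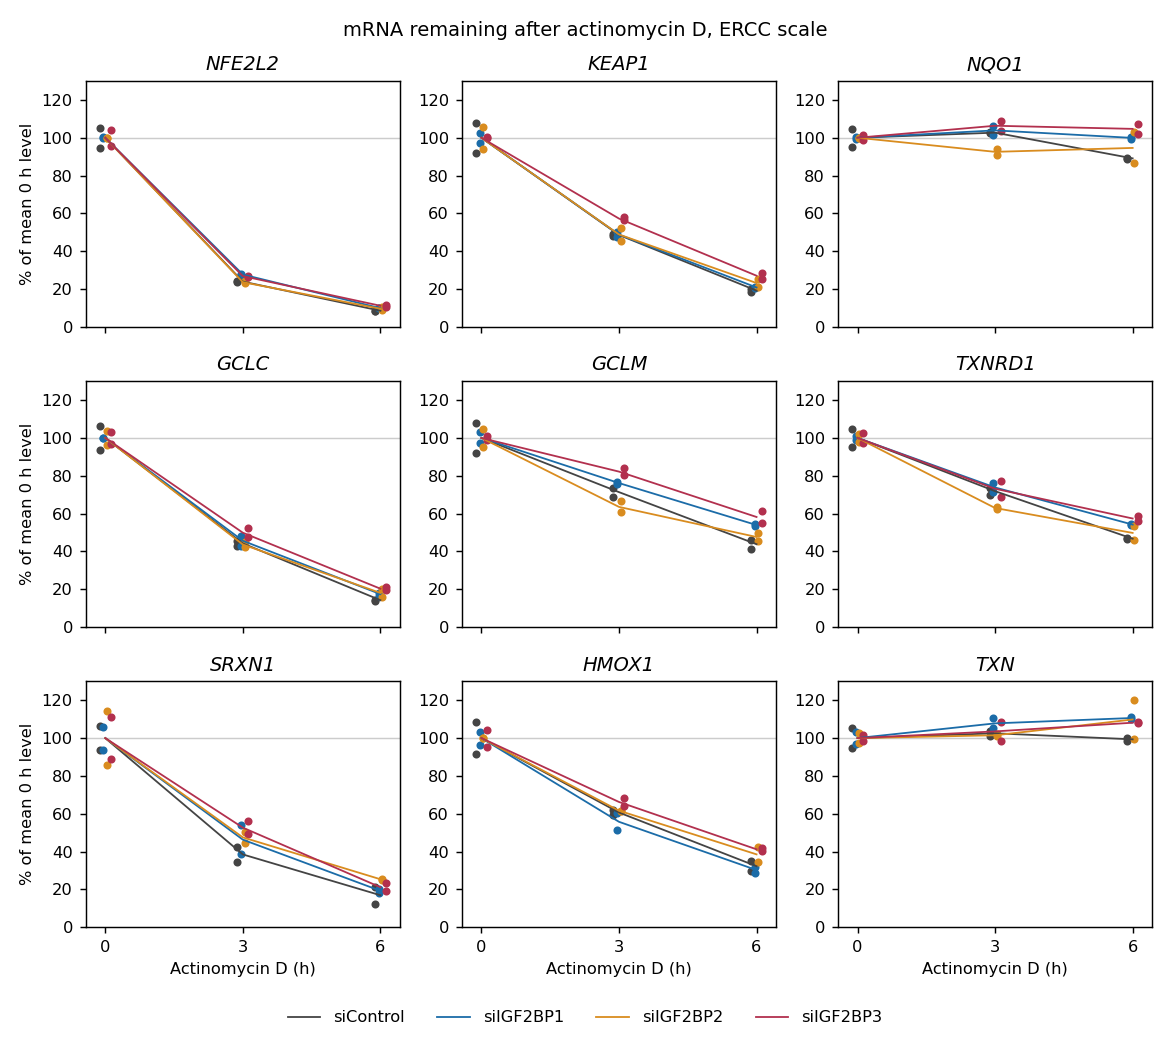
Level of each member on the ERCC scale as a percentage of its mean at 0 h in the same siRNA, against hours of actinomycin D. Points are libraries, lines join means of 2, and colours are the siRNAs; NFE2L2 drops to between 8.46% and 11.5% by 6 h while NQO1 and TXN stay between 86.4% and 120%.

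NFE2L2 was the shortest-lived member. In siControl 23.6% and 24.2% of its 0 h level was left at 3 h, and 8.57% and 8.46% at 6 h. At 6 h the other libraries held 9.91% and 9.81% in siIGF2BP1, 8.92% and 10.2% in siIGF2BP2, and 10.8% and 11.5% in siIGF2BP3, all above both controls. How many of all genes show this was not counted. Total gene reads per ERCC read at 6 h, against the 0 h mean of the same siRNA, were 70.7% and 65.9% in siControl. They were 77.7% and 76.9% in siIGF2BP1, 70.6% and 81.3% in siIGF2BP2, and 80.7% and 75.9% in siIGF2BP3. The half-lifetime of NFE2L2 in siControl was 1.56 h, with a range of 1.51 to 1.62 h over the 8 ways of taking 1 library per time point, and 5.5% of 12178 genes had a faster rate. After siIGF2BP1 it was 1.70 h, after siIGF2BP2 1.59 h and after siIGF2BP3 1.72 h. The slope differences from siControl, 0.21, 0.16 and 0.38 (log2 over 6 h), were below their SE of 0.23 and 0.22 in the first pair, and in siIGF2BP3 did not pass the test (SE 0.22, adjusted p = 0.362 in edgeR).

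KEAP1, the negative arm of the pathway, lasted longer than NFE2L2. In siControl 48.1% and 49.1% was left at 3 h and 19.8% and 18.5% at 6 h. At 6 h there was 20.7% and 20.9% in siIGF2BP1, 21.3% and 25.0% in siIGF2BP2, and 28.5% and 25.5% in siIGF2BP3. The siIGF2BP3 libraries were the highest at both times, and how many of all genes show this was not counted. The half-lifetime was 2.69 h in siControl (range over combinations 2.46 to 2.98 h), 2.77 h with siIGF2BP1, 2.87 h with siIGF2BP2 and 3.43 h with siIGF2BP3 (3.31 to 3.56 h).

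The subunits of glutamate-cysteine ligase had unlike lifetimes. GCLC in siControl was at 43.0% and 45.4% at 3 h and 14.5% and 13.8% at 6 h, whereas GCLM was at 73.7% and 68.9% and then 46.1% and 41.5%. Half-lifetimes in siControl were 2.32 h for GCLC (2.16 to 2.51 h) and 5.54 h for GCLM (4.48 to 7.35 h), and the ranges of the subunits did not overlap in any of the 4 conditions. In siIGF2BP1 the values were 2.50 h and 7.15 h, in siIGF2BP2 2.47 h and 5.04 h, and in siIGF2BP3 2.78 h (2.58 to 3.02 h) and 8.91 h (7.83 to 10.3 h). At 0 h the level per kilobase of GCLC was above that of GCLM, and after 6 h in siControl they stood at 4.11 ± 0.101 and 4.53 ± 0.0702 (SD, n = 2, TMM-scaled CPM per kilobase).

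In the thioredoxin branch the reductase mRNA was lost with time, and that of its substrate showed no measurable loss. TXNRD1 in siControl was at 73.7% and 70.0% at 3 h and 46.9% and 46.5% at 6 h. Its half-lifetime was 5.85 h, near 6.22 h, the siControl median of the 11039 genes whose mean rate showed a fall. Of 12178 genes, with a fall or not, 43.3% had a faster rate. With siIGF2BP1 the half-lifetime was 6.81 h, with siIGF2BP2 5.12 h and with siIGF2BP3 7.04 h. TXN showed no fall in its mean rate in any condition: at 6 h it was at 98.7% and 100.0% in siControl, 111% and 110% in siIGF2BP1, 99.5% and 120% in siIGF2BP2, and 108% and 109% in siIGF2BP3. SRXN1 fell to 21.4% and 12.4% in siControl by 6 h, from 44 to 107 reads per library over the conditions, with a half-lifetime of 2.26 h (1.90 to 2.71 h) that overlapped in range with every knockdown.

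HMOX1 stood between these groups. In siControl 59.4% and 61.9% was left at 3 h and 34.8% and 29.7% at 6 h, and at 6 h there was 31.6% and 28.9% in siIGF2BP1, 34.5% and 42.6% in siIGF2BP2, and 42.1% and 40.3% in siIGF2BP3. The half-lifetime was 3.90 h in siControl (3.32 to 4.77 h), 3.52 h with siIGF2BP1, 4.33 h with siIGF2BP2 and 4.86 h with siIGF2BP3 (4.30 to 5.61 h). Its slope difference from siControl in siIGF2BP1 was -0.10 (SE 0.15, adjusted p = 0.773 in edgeR).

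NQO1 barely decayed. In siControl it was at 103% in both replicates at 3 h and at 89.3% and 88.9% at 6 h. At 6 h it was at 99.3% and 101% in siIGF2BP1, 86.4% and 103% in siIGF2BP2, and 107% and 102% in siIGF2BP3. The siControl slope of -0.17 passed the test narrowly (SE 0.08, adjusted p = 0.0469 in edgeR), lost that call without 0 h replicate 1 or either 6 h library, and turned to 0.70 with TMM and 0.38 with library-size scaling. These scalings moved the median siControl slope of all genes from -0.88 to -0.02 and -0.34. A half-lifetime of 134 h came out for siControl and 39.6 h for siIGF2BP2, with no fall in siIGF2BP1 and siIGF2BP3, and in siControl 4 of the 8 combinations gave no fall, so these values lie far outside what 6 h of sampling can resolve.

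**Figure D4:**
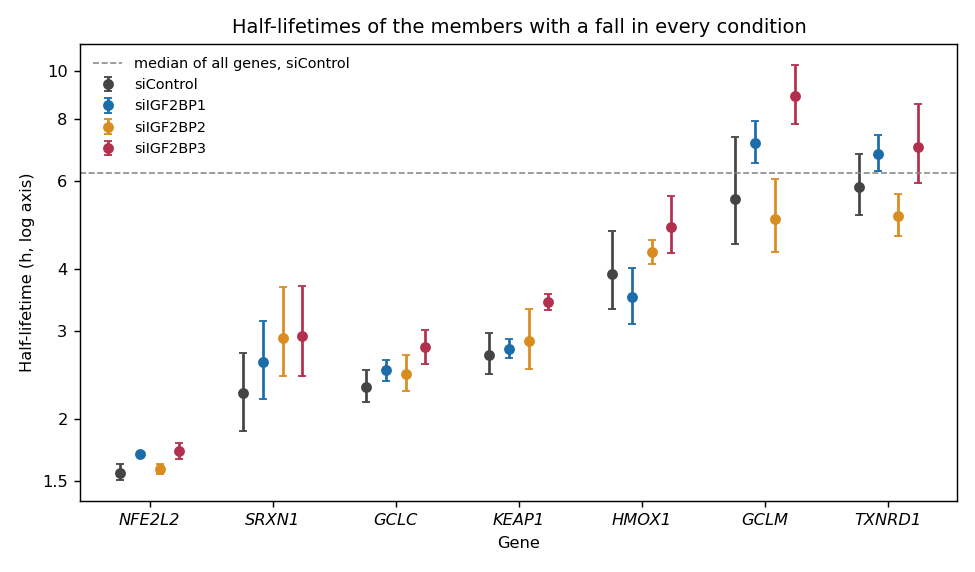
Half-lifetime in hours, on a log axis, of the 7 members that fell in every condition, ordered by the siControl value. Points use the mean of 2 libraries per time point, and bars span the 8 combinations of 1 library per time point. The dashed line, 6.22 h, is the siControl median of the genes whose mean rate showed a fall. The siIGF2BP3 bars of NFE2L2, GCLC, KEAP1 and GCLM lie above the siControl bars, and so does the siIGF2BP1 bar of NFE2L2. How many of all genes show this was not counted, and no slope difference of a member passed the test.

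The order of lifetimes was therefore regulator and sensor among the short-lived mRNAs and the targets spread from GCLC and SRXN1 to NQO1 and TXN. The wider lists showed the same mixture in siControl. All 12 partners and regulators fell, beside 80.3% of all genes, with a median slope of -1.72 against -0.88. Their half-lifetimes ran from 1.94 h for BACH1, the repressor that competes with NRF2, and 2.07 h for MAFF, a small MAF partner, to 7.43 h for SQSTM1, 14.5 h for RBX1 and 23.0 h for NFE2L1. The last 3 were above 6.22 h, the median of the genes whose mean rate showed a fall. Of the targets 4 of 8 glutathione and NADPH genes, 8 of 13 detoxification genes and 2 of 4 heme and iron genes fell, with median slopes of -0.16, -0.30 and -0.19. OSGIN1, at 1.30 h, was the shortest-lived of them, and FTL and FTH1 showed no fall. With TMM scaling, 9 of the 12 regulators were called falling and 2 rising, and the targets were mostly called rising, 7 of 8, 11 of 13 and 3 of 4.

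AU-rich letters are known from many short-lived mRNAs, and the run TATTTAT was counted in the 3′ UTR of each canonical transcript. NFE2L2 and SRXN1 held 1, GCLM held 2, TXNRD1 held 2 that overlap, and KEAP1, NQO1, GCLC, HMOX1 and TXN held none, so 4 of 9 members beside 35.3% of 11361 genes. The sites of the shortest-lived member and of the slower GCLM and TXNRD1 are shown 5′ to 3′ on the transcript strand of hg38, with the motif in capitals.
NFE2L2, chr2:177230509-177230535, minus strand: tacaaaaactTATTTATactgttctta
GCLM, chr1:93888081-93888107, minus strand: aaatgtgtaaTATTTATtccccattaa
GCLM, chr1:93885742-93885768, minus strand: acaattgataTATTTATtgtatgttgg
TXNRD1, chr12:104349985-104350011, plus strand: tattcagtttTATTTATttatttttaa
The members that hold the run had half-lifetimes of 1.56 h to 5.85 h in siControl. All were below 6.22 h, the median of the genes whose mean rate showed a fall. Those without it include NQO1 and TXN, which showed little or no loss, and also GCLC, KEAP1 and HMOX1 at 2.32 h, 2.69 h and 3.90 h.

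Whether a knockdown changed decay was tested as the difference of slopes from siControl, where a positive value is a slower loss. No member was called in any knockdown, beside 0.0152% of all genes for siIGF2BP1, 0% for siIGF2BP2 and 0.0228% for siIGF2BP3. Before adjustment, 0, 0 and 6 members had p under 0.05, as did 1436, 896 and 2113 of all genes, and DESeq2 called no member either. The 6 in siIGF2BP3 were KEAP1 at 0.50 (SE 0.16), GCLC at 0.51 (SE 0.18), GCLM at 0.41 (SE 0.15), HMOX1 at 0.35 (SE 0.15), TXNRD1 at 0.30 (SE 0.12) and NQO1 at 0.23 (SE 0.11), with adjusted p between 0.277 and 0.302. The median slope difference over the members was 0.20, 0.16 and 0.35 in siIGF2BP1, siIGF2BP2 and siIGF2BP3, against 0.19, 0.17 and 0.22 over all genes. For siIGF2BP1 and siIGF2BP2 the members' median was thus close to that of all genes.

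Half-lifetimes were compared where both conditions gave one. They were longer than in siControl for 6 of 7 members in siIGF2BP1, 5 of 8 in siIGF2BP2 and 7 of 7 in siIGF2BP3. Beside these stood 81.6%, 62.8% and 84.7% of the 10216, 10744 and 10116 genes with such a pair. The members' median log2 ratio was 0.12, 0.06 and 0.32, against 0.23, 0.07 and 0.25 over those genes. The siIGF2BP2 values include NQO1, whose lifetime is not resolved here, and without it they are 5 of 7 and 0.09. In siIGF2BP2 the measures of decay differed in sign for GCLM and TXNRD1, with half-lifetime ratios of 0.910 and 0.876 but slope differences of 0.12 (SE 0.14) and 0.09 (SE 0.12), which were not called. In siIGF2BP3 the ratio to siControl was 1.28 for KEAP1, 1.20 for GCLC, 1.61 for GCLM, 1.25 for HMOX1 and 1.10 for NFE2L2.

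The siIGF2BP3 result depended on single libraries and on the model used. Over the 12 fits without 1 library, the differences moved both up and down from those above. They ran from 0.41 to 0.64 for KEAP1, 0.41 to 0.66 for GCLC and 0.32 to 0.54 for GCLM. Without siControl 0 h replicate 2, KEAP1, GCLC and GCLM were called slower (adjusted p = 0.0457, 0.0491 and 0.0489 in edgeR), and the all-gene count went from 3 to 540. A further alternative was the 0 h to 6 h change in the model of 12 groups, which keeps the 3 h libraries in the fit. It called KEAP1 at 0.50 (adjusted p = 0.0465 in edgeR) and GCLC at 0.51 (adjusted p = 0.0341), with 195 genes in all. With TMM scaling, which brought the all-gene median difference in siIGF2BP3 from 0.22 to -0.01, KEAP1 was at 0.27, GCLC at 0.29, GCLM at 0.18, HMOX1 at 0.13, TXNRD1 at 0.07 and NQO1 at 0.01, and none was called.

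**Figure D5:**
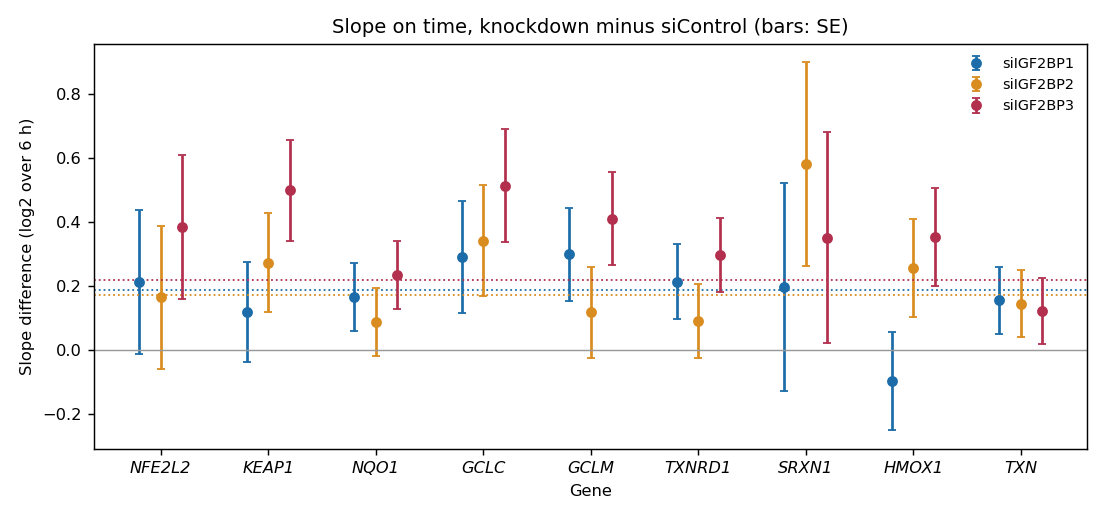
Difference of the slope on time from siControl for each member, in log2 units over 6 h on the ERCC scale, with SE bars. Dotted lines are the all-gene medians of the knockdowns in the same colours, 0.19, 0.17 and 0.22; most points of siIGF2BP3 lie above its line, and no difference passed the adjusted test.

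Likeness to the regulators was described over the 12 group means on the ERCC scale, whose points share the time course and the libraries. Of 9745 genes, GTF3C4 (r = 0.999), POLR1B (r = 0.999) and ZNF24 (r = 0.999) ran closest to NFE2L2, and APEX2 (r = 0.999), SON (r = 0.999) and PDCD10 (r = 0.999) closest to KEAP1. Such values were common, since 617 genes reached r = 0.99 with NFE2L2 and 352 with KEAP1. Among the members, r with NFE2L2 was 0.98 for KEAP1, GCLC, TXNRD1 and SRXN1, 0.96 for HMOX1 and 0.95 for GCLM, but 0.16 for NQO1 and -0.29 for TXN. These values restate which mRNAs fell during the drug treatment.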

How the data were processed

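RNA was counted in 24 HepG2 libraries. Per the labels and the study's methods, the authors trimmed single-end reads with Trimmomatic 0.39, aligned them to hg38 with HISAT2 2.1.0 and counted reads per GENCODE gene with HTSeq, whose overlap settings are not given in the sources used here. The deposited values are raw read counts, not normalized, and counts of PCR copies cannot be told from separate molecules. The 5 summary rows, 13.551% to 17.064% of each library, and 45 Y pseudoautosomal rows were left out. Of the IDs, 58207 matched a symbol and 469 did not.

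The 13136 genes that reached a CPM of 1 in 2 or more libraries were tested with edgeR 4.0.16 (R 4.3.3), its two-sided quasi-likelihood test and Benjamini-Hochberg adjustment over all genes, with a threshold of 0.05. Levels at 0 h came from a model of 12 groups with TMM scaling (12 residual degrees of freedom), and slopes on time from an intercept and slope per siRNA scaled by total ERCC reads (16 residual degrees of freedom). The fits were tested on simulated data. Half-lifetime is ln 2 divided by the mean of the decay rates from 0 h to 3 h and from 0 h to 6 h, and the authors' conversion to attomole was replaced by the ERCC total. Alternatives were DESeq2 1.42.0, other scalings, no count filter, fits on the compared libraries alone, the 0 h to 6 h change, a replicate block, and leaving out each library.

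Named genes are the 9 members, the siRNA targets, up to 6 called genes per wider list in the knockdown with most members called, and 3 genes most like each of NFE2L2 and KEAP1. The values of 1 gene of the wider lists are not reported here. Genes of the wider lists named for other knockdowns or for decay were chosen after their values were seen. The members and lists were chosen with earlier results of these data known. Gene positions, transcripts and 3′ UTRs are from GENCODE 44 on hg38, a later release than the one counted on.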

Additional observations from a re-analysis of the deposited data

Results flagged for a closer look

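Effects against siControl at 0 h differed between knockdowns for 4 members, by a direct test of the difference in edgeR (log2, TMM scaling). NQO1 was higher in siIGF2BP1 than in siIGF2BP2 by 0.43 and than in siIGF2BP3 by 0.21, and its difference between siIGF2BP2 and siIGF2BP3 was -0.23. The libraries of the 3 knockdowns did not overlap for NQO1, and how many of all genes show this was not counted. HMOX1 differed by 0.22 between siIGF2BP1 and siIGF2BP2 and by -0.29 between siIGF2BP2 and siIGF2BP3. GCLC and GCLM were higher in siIGF2BP1 than in siIGF2BP3, by 0.23 and 0.26. With ERCC scaling all 7 kept their direction and 1, NQO1 between siIGF2BP1 and siIGF2BP2, was called. The differences between siIGF2BP2 and siIGF2BP3 were as large on that scale (-0.23 and -0.29), while the other uncalled ones were smaller, between 0.09 and 0.14.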

How the results depend on the processing

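At 0 h, ERCC scaling left 0 members called in siIGF2BP1 and 0 in siIGF2BP2, and a fit of the 4 libraries compared gave 2 in siIGF2BP2, adding NFE2L2. Leaving out 1 library gave 2 to 3 in siIGF2BP1 and 0 to 1 in siIGF2BP3. Between knockdowns, ERCC scaling gave 1 member for siIGF2BP1 against siIGF2BP2 and 0 for the other pairs, DESeq2 gave 4 for siIGF2BP1 against siIGF2BP2 (adding GCLC and TXNRD1), and leaving out 1 library gave 1 to 2 there. The slope of NQO1 in siControl reversed to 0.70 with TMM and 0.38 with library-size scaling. Slope differences in siIGF2BP3 called 2 members from the 0 h to 6 h change and 0 to 3 without 1 library. The cause of these changes was not tested.

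Over all genes, ERCC scaling called 649, 732 and 471 genes at 0 h in siIGF2BP1, siIGF2BP2 and siIGF2BP3 (253, 563 and 388 higher) in place of 2093, 1593 and 1234 (1239, 874 and 647 higher), and 1585, 875 and 382 between knockdowns in place of 2455, 1879 and 1207. With TMM scaling 4773 genes rose and 5085 fell in siControl, against 33 and 10551. Slope differences by DESeq2 numbered 4, 6 and 27, and by the 0 h to 6 h change 86, 72 and 195, against 2, 0 and 3.

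Replicates share a number across groups, but the labels do not say what it marks. Deviations of same-numbered libraries correlated at -0.031 to 0.242 within an siRNA and -0.064 to 0.195 within a time. All 3 siIGF2BP3 correlations were over 0.1 (0.181 to 0.242) and all 9 of the other siRNAs under it (at most 0.057). The siIGF2BP3 libraries thus showed some pairing, which the main fits, without a block, do not use. With a replicate block, 5, 1 and 1 members were called at 0 h, 8, 7, 7 and 7 fell with time and 0 differed in slope, as without it. With 2 libraries per group, a member at 5 CPM such as SRXN1 was measured with an SE of 0.18 at 0 h.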
